A study of Mus musculus with 16 samples.

Results

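Iron enters the body through enterocytes, the absorptive cells of the intestinal epithelium, and 8 genes of this route were followed here through the jejunum and ileum of suckling and weaned mice. They were Cybrd1, Slc11a2, Mfi2 and Tfrc, whose products act in iron reduction, binding or uptake, Hmox1 and Fth1, which act in heme breakdown and iron storage, and Slc40a1 and Heph, which act in export. They were chosen by name for these roles, with earlier results of these data known. They are 8 of the 24421 genes counted in every library, and all 8 had enough counts to be tested. The epithelium came from wild-type C57BL6/J mice at P6 (postnatal day 6, before weaning) and P36 (after weaning), and no mouse carried a mutation or received a treatment according to the labels. Each of 8 mice, 4 per age and 2 of each sex per age, gave 1 jejunum and 1 ileum library, so that there were 16 libraries in 4 groups of 4. Cells were released with EDTA and not sorted, and a lower level in such bulk RNA cannot be told apart from fewer cells of the type that makes it.

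Dietary iron is reduced at the brush border by the ferric reductase that Cybrd1 encodes (duodenal cytochrome b) and is carried into the cell by the proton-coupled transporter DMT1, the product of Slc11a2. Inside, iron is stored in ferritin, of which Fth1 encodes the heavy chain, or leaves across the basolateral membrane through ferroportin, the product of Slc40a1, with hephaestin (Heph) oxidising it on the way out. In adults this route is best known from the duodenum, a region not sampled here. Tfrc encodes transferrin receptor 1, through which cells take up transferrin-bound iron from the blood side, Hmox1 encodes heme oxygenase 1, which releases iron from heme, and Mfi2 (now named Meltf) encodes melanotransferrin, a membrane-anchored iron-binding relative of transferrin.

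Several of these mRNAs carry iron-responsive elements, short hairpins bound by the iron regulatory proteins when iron is scarce. Binding in the 5′ untranslated region (UTR) blocks translation, and binding in the 3′ UTR protects the mRNA from decay. The hairpins are shown because they divide the 8 genes by a property that RNA counts only partly see: control in the 5′ UTR acts on translation, which was not measured. The search asked for an unpaired C, 5 bases, the loop CAGTGN with a last base other than G, and 5 bases that pair with the first 5, with G·U pairs allowed. The bulged form allowed 1 unpaired base in the second arm. Sequences are from GENCODE M21 transcripts of GRCm38, the same assembly as mm10, written as DNA from 5′ to 3′ with the loop in capitals. Fth1 and Slc40a1 had 1 hairpin each in the 5′ UTR, Slc11a2 a bulged one in the 3′ UTR, and Tfrc 4 in the 3′ UTR. The light chain gene Ftl1 is shown as the partner of Fth1. Epas1, an iron and oxygen sensing gene read further below, held a bulged hairpin in the 5′ UTR, which is not shown.
Fth1, 5′ UTR, chr19:9982732-9982760, plus strand: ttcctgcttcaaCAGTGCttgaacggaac
Ftl1, 5′ UTR, chr7:45459779-45459807, minus strand: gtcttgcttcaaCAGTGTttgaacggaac
Slc40a1, 5′ UTR, chr1:45925465-45925493, minus strand: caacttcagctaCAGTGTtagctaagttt
Slc11a2, 3′ UTR, chr15:100395152-100395181, minus strand: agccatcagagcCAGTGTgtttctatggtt
Tfrc, 3′ UTR, chr16:32631219-32631247, plus strand: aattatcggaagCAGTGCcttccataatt
Tfrc, 3′ UTR, chr16:32631598-32631626, plus strand: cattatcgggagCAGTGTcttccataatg
Tfrc, 3′ UTR, chr16:32631663-32631691, plus strand: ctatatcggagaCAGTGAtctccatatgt
Tfrc, 3′ UTR, chr16:32631710-32631738, plus strand: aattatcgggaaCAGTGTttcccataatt

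Of 21877 genes searched, 123 (0.562%) held the plain form in a UTR and 317 (1.45%) the plain or the bulged form, against 3 and 4 of the 8 genes followed here. A match is a description of the letters, not a measured site. Slc11a2 is transcribed with and without the hairpin exon. Counts by gene cannot separate transcripts with and without a hairpin, for Slc11a2 or for the other genes shown. Cybrd1, Mfi2, Heph and Hmox1 held no match of this form, from which nothing is drawn.

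Libraries held between 12159237 and 25947276 counts. The values below are CPM (counts scaled to a common library size, with TMM factors), and fold changes, standard errors (SE) and Benjamini-Hochberg adjusted p-values are from edgeR's quasi-likelihood test over 13429 genes, in one fit of all 16 libraries. A gene passed at an adjusted p below 0.05. A fold change between regions is jejunum over ileum, and one with age is P36 over P6. All 6 epithelial markers were present in every group (summed level 3981 to 14103 CPM), and the region markers matched the labels: Gata4, a transcription factor of the proximal intestine, was at 155 to 193 CPM in jejunum libraries and at 0.735 to 34.7 CPM in ileum libraries. P6 ileum replicate 2 carried smooth muscle and fibroblast RNA (summed level of the 9 markers 420 CPM, against 6.13 to 61.8 CPM in the other libraries). P6 ileum replicate 4 stood far from the other 3 libraries of its group for 12.1% of the genes tested, against 0.313% to 2.03% for every other library. Values without both of these libraries, from a fit chosen after seeing the data, are given beside the results whose call or size they alter most. P6 jejunum replicates 2 and 4, from the same mice, stayed in that fit. Its regional values at P6 thus compare different sets of mice. The mice left in its P6 ileum group share the beginning of their names (see Other observations).

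Between P6 and P36, 5 of the 8 fell and 1 rose in the jejunum, and 7 fell and 1 rose in the ileum. Among all genes tested, 26.9% fell and 24.7% rose in the jejunum, and 30.1% fell and 25.5% rose in the ileum. The median log2 fold change with age over the 8 genes was -4.36 in the jejunum and -2.32 in the ileum, beside -0.01 and -0.03 over all genes tested. Between regions, 1 of the 8 was higher in the jejunum at P6 (11.1% of all genes) and none in the ileum (14.8%). At P36, 1 was higher in the jejunum (8.3% of all genes) and 1 in the ileum (7.8%). Markers of other cell types were read at both ages as well. The summed level of 6 goblet cell markers was 1642 to 3942 CPM at P6 and 10712 to 22036 CPM at P36, and that of 6 Paneth cell markers was 29.0 to 814 CPM and at least 4418 CPM. The highest P6 sums of the Paneth cell markers were mostly Itln1. In P6 jejunum replicate 1 it held 782 CPM, and the next marker, Ang4, held 12.0 CPM. The 8 enterocyte markers summed to 95735 to 116084 CPM in the P6 jejunum and 33822 to 44114 CPM in the P36 jejunum, and to 10721 to 20868 CPM and 5020 to 32670 CPM in the ileum. Most of the jejunum fall was Apoa4, with a mean of 75231 CPM at P6 and 3455 CPM at P36. On average Apoa4, Alpi, Apoa1 and Lct fell in both regions, whereas Fabp2, Sis, Anpep and Krt20 rose in both. The sum therefore does not measure the share of enterocytes. The part of these cell types in the changes of the 8 genes was not tested. With the study's additional minimum of 2 for the absolute log2 fold change, 1 of the 8 passed between regions at P6, 1 at P36, 5 with age in the jejunum and 4 in the ileum, beside 6.5%, 3.6%, 16.4% and 16.4% of all genes.

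**Figure D1:**
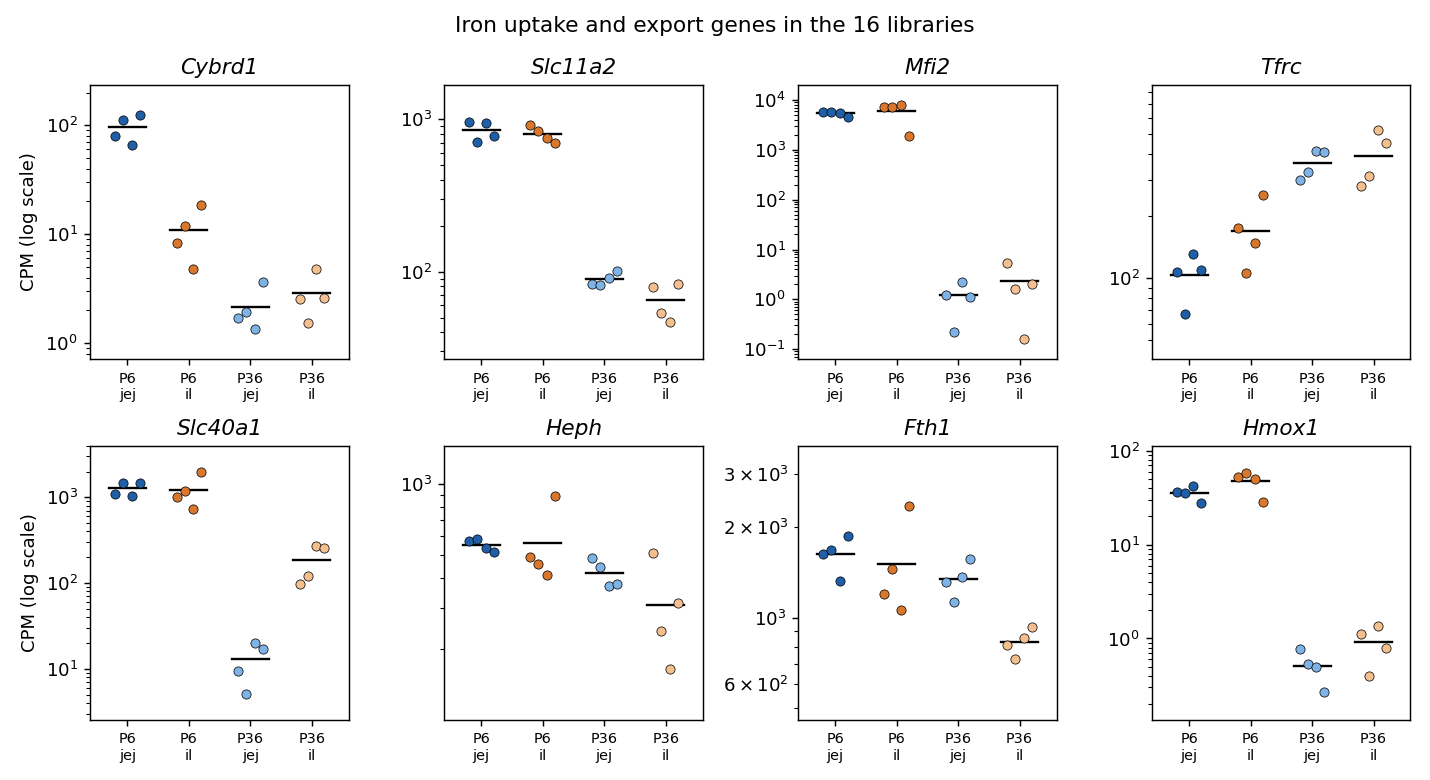
CPM (vertical axis, log scale, a separate scale in each panel) of the 8 genes in the 4 libraries of each group: P6 jejunum, P6 ileum, P36 jejunum and P36 ileum; points are libraries in the order of replicates 1 to 4 and bars are group means. Cybrd1 is highest in the 4 P6 jejunum libraries, Mfi2 falls from at least 1901 CPM at P6 to 0.163 to 5.42 CPM at P36, and Slc40a1 at P36 lies lower in the jejunum than in the ileum.

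Cybrd1, the reductase gene on chromosome 2 (71118054 to 71142926, plus strand, mm10), differed between regions at P6. In the P6 jejunum its 4 libraries held 80.1, 113, 66.2 and 125 CPM, and those from the ileum of these mice held 8.34, 12.0, 4.83 and 18.7 CPM. The ranges did not overlap, and the jejunum was 6.66 to 13.7 times as high as the ileum in 4 of 4 mice. The log2 fold change was 3.13 (SE 0.42, adjusted p = 5.2e-05), and it was 3.83 (adjusted p = 3.79e-05) without P6 ileum replicates 2 and 4, where Cybrd1 was highest among the ileum libraries. P6 jejunum replicates 2 and 4, from the same mice and also the highest of their group, stayed in that fit. By P36 the level was 1.71, 1.94, 1.35 and 3.62 CPM in the jejunum and 2.54, 1.53, 4.78 and 2.61 CPM in the ileum. These overlapped, with the jejunum higher in 2 of 4 mice, and the log2 fold change of -0.43 (SE 0.44, adjusted p = 0.571) did not pass. The fall with age was 44.6-fold in the jejunum (log2 fold change -5.48 with an SE of 0.48, adjusted p = 1e-07). It was 3.78-fold in the ileum (log2 fold change -1.92 with an SE of 0.42, adjusted p = 0.00113), which became a log2 fold change of -1.17 (adjusted p = 0.0264) without P6 ileum replicates 2 and 4.

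Slc11a2, which encodes DMT1 (chromosome 15, 100387900 to 100423055, minus strand), was high in both regions at P6. Then the jejunum libraries held 963, 713, 944 and 776 CPM and the ileum libraries 916, 832, 756 and 699 CPM. The regions overlapped, and their difference (log2 fold change 0.08 with an SE of 0.18, adjusted p = 0.775) did not pass. At P36 the jejunum held 83.3, 81.7, 91.3 and 101 CPM and the ileum 79.1, 53.2, 46.6 and 82.7 CPM. The jejunum was higher in 4 of 4 mice, by 1.05 to 1.96 times, but the ranges overlapped and the difference (log2 fold change 0.45 with an SE of 0.19, adjusted p = 0.119) did not pass. With age the gene fell 9.52-fold in the jejunum (log2 fold change -3.25 with an SE of 0.20, adjusted p = 2.06e-09) and 12.2-fold in the ileum (-3.61, SE 0.20, adjusted p = 9.44e-10).

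Mfi2, the melanotransferrin gene (chromosome 16, 31878810 to 31899019, plus strand), had the largest change with age of the 8. At P6 it stood at 5745, 5685, 5500 and 4521 CPM in jejunum libraries and at 7370, 7210, 7778 and 1901 CPM in ileum libraries, where the lowest value is that of replicate 4. The P36 jejunum held 1.24, 0.221, 2.24 and 1.12 CPM and the P36 ileum 5.42, 1.59, 0.163 and 2.06 CPM, from 5 to 50 and from 4 to 98 counts per library. Every P36 library lay below every P6 library. The log2 fold change with age was -12.11 (SE 0.99, adjusted p = 4.86e-08) in the jejunum and -11.37 (SE 0.96, adjusted p = 7.71e-08) in the ileum. The ileum value moved to -12.31 (adjusted p = 1.16e-07) without P36 ileum replicate 1, which held 98 of the 156 counts of its group. The regions did not differ beyond the spread at P6 (log2 fold change -0.18 with an SE of 0.61, adjusted p = 0.86) or at P36 (-0.92, SE 0.73, adjusted p = 0.453). At P6 the jejunum was 2.38 times as high as the ileum in the mouse of replicate 4 and at 0.707 to 0.789 of it in the others. The P6 value was -0.47 (adjusted p = 0.561) without P6 ileum replicate 4 and -0.52 (adjusted p = 0.592) without replicates 2 and 4.

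Tfrc, the transferrin receptor gene (chromosome 16, 32608896 to 32632794, plus strand), was the only one of the 8 that rose with age. At P6 the jejunum libraries held 108, 67.4, 131 and 109 CPM and the ileum libraries 175, 106, 148 and 252 CPM. At P36 they held 300, 328, 413 and 407 CPM (jejunum) and 279, 314, 520 and 452 CPM (ileum), so that every P36 library lay above every P6 library. The rise was 3.49-fold for the jejunum (log2 fold change 1.80 with an SE of 0.27, adjusted p = 4.57e-05), and the log2 fold change for the ileum was 1.20 (SE 0.27, adjusted p = 0.00137). Markers of proliferating cells, 8 genes such as Mki67 and Top2a, moved with it: their summed level was 165 to 409 CPM at P6 and 598 to 1054 CPM at P36, and their part in the rise was not tested. At P6 Tfrc was lower in the jejunum in 4 of 4 mice, at 0.434 to 0.884 of the ileum level. That difference did not pass (log2 fold change -0.71 with an SE of 0.27, adjusted p = 0.0612). It passed with the mouse as a block (-0.68, adjusted p = 0.014) and without P6 ileum replicate 2 (-0.89, adjusted p = 0.0226), and did not without P6 ileum replicate 4 (-0.46, adjusted p = 0.174) or without both (-0.66, adjusted p = 0.0762). At P36 the regional log2 fold change was -0.11, with an SE of 0.27 (adjusted p = 0.837).

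Hmox1, the heme oxygenase gene (chromosome 8, 75093618 to 75100593, plus strand), was measured at P6 at 36.7, 35.8, 41.8 and 27.9 CPM for the jejunum and at 52.6, 58.0, 50.2 and 28.9 CPM for the ileum. At P36 it was near the limit of detection, with 0.765, 0.529, 0.494 and 0.266 CPM in the jejunum and 1.11, 0.397, 1.35 and 0.791 CPM in the ileum, from 5 to 33 counts per library. It fell 68.8-fold with age in the jejunum (log2 fold change -6.11 with an SE of 0.36, adjusted p = 1.23e-09) and 50.6-fold in the ileum (-5.66, SE 0.35, adjusted p = 2.09e-09). The P6 ileum was higher in 4 of 4 mice and the P36 ileum in 3 of 4, and neither difference passed (log2 fold change -0.42 with an SE of 0.27, adjusted p = 0.278, and -0.86, SE 0.38, adjusted p = 0.143).

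Because macrophages also express Hmox1 and Slc40a1, their markers were read beside both genes. Of the 10 macrophage markers, Csf1r fell with these genes, from 415 to 498 CPM (jejunum) and 152 to 333 CPM (ileum) at P6 to 0.608 to 3.55 CPM at P36. The list's summed level was 169 to 515 CPM at P6, most of it Csf1r, and 6.09 to 25.9 CPM at P36, where Mrc1, Lyz2 and Cd68 had higher means than Csf1r in both regions. Cd68 was at 5.57 CPM or more in every P6 library and at 1.23 to 6.35 CPM at P36. The others stayed low at P6: Adgre1, C1qa, C1qb and C1qc reached at most 4.78 CPM, Mrc1 3.19 CPM and Lyz2 3.02 CPM, Cd163 had counts in a single P6 library and Vsig4 had none. Red cell markers summed to at most 0.834 CPM in any library, although the globin genes among them are near-identical copies whose counts are uncertain.

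Fth1, the ferritin heavy chain gene (chromosome 19, 9980600 to 9985111, plus strand), was high at both ages. At P6 it held 1627, 1684, 1322 and 1874 CPM in jejunum libraries and 1194, 1447, 1057 and 2346 CPM in ileum libraries. At P36 the jejunum libraries held 1311, 1131, 1364 and 1564 CPM and the ileum libraries 809, 728, 855 and 927 CPM. The P36 ileum thus lay below all 12 other libraries. In the ileum Fth1 fell 1.82-fold with age (log2 fold change -0.86 with an SE of 0.22, adjusted p = 0.00362), which became -0.44 (adjusted p = 0.0357) without P6 ileum replicates 2 and 4. The highest P6 value was that of replicate 4. The jejunum was at -0.28 (SE 0.22, adjusted p = 0.314). At P36 the jejunum was 1.56 to 1.69 times as high as the ileum in 4 of 4 mice (log2 fold change 0.69 with an SE of 0.22, adjusted p = 0.0425). This call was lost in each of the 8 fits that left out 1 P36 library (log2 fold change 0.61 to 0.77, adjusted p 0.0516 to 0.121). At P6 the regions overlapped (log2 fold change 0.11 with an SE of 0.22, adjusted p = 0.762), but without P6 ileum replicates 2 and 4 the jejunum was higher (0.50, adjusted p = 0.0429). Reads of Fth1 and Ftl1 can be split with processed copies of these genes elsewhere in the genome, which leaves their levels uncertain.

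Slc40a1, which encodes ferroportin (chromosome 1, 45908070 to 45925594, minus strand), did not pass between the regions at P6, and was far lower in the jejunum than in the ileum at P36. At P6 the jejunum held 1103, 1457, 1038 and 1485 CPM and the ileum 1019, 1172, 736 and 1981 CPM (log2 fold change 0.05 with an SE of 0.41, adjusted p = 0.941). The P36 jejunum held 9.41, 5.16, 20.2 and 17.1 CPM, whereas the P36 ileum held 97.9, 120, 272 and 256 CPM. At P36 the regions did not overlap, and the jejunum level was 0.043 to 0.0962 of that in the ileum of the same mouse in 4 of 4 mice. The log2 fold change was -3.85 (SE 0.46, adjusted p = 3.74e-05), and it passed in all 8 fits that left out 1 P36 library (-4.12 to -3.58). With age the gene fell 98.1-fold in the jejunum (log2 fold change -6.62 with an SE of 0.53, adjusted p = 3.78e-08) and 6.58-fold in the ileum (-2.72, SE 0.44, adjusted p = 7.61e-05), where it was at -2.23 (adjusted p = 0.000724) without P6 ileum replicates 2 and 4.

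Heph, the hephaestin gene (X chromosome, 96455436 to 96574484, plus strand), held 574, 585, 534 and 515 CPM in P6 jejunum libraries and 489, 460, 412 and 887 CPM in P6 ileum libraries, where replicate 4 was far above the rest. At P36 it held 485, 446, 369 and 379 CPM in the jejunum and 509, 239, 165 and 315 CPM in the ileum. All P36 jejunum libraries lay below all P6 jejunum libraries, but the log2 fold change of -0.40 (SE 0.29, adjusted p = 0.273) did not pass. It did in a fit of only the 8 jejunum libraries (-0.38, adjusted p = 0.00579). In the ileum Heph fell 1.83-fold (log2 fold change -0.87 with an SE of 0.29, adjusted p = 0.0187). That call was lost without P6 ileum replicate 4 (-0.56, adjusted p = 0.0736), without P36 ileum replicate 2 (-0.76, adjusted p = 0.0591) and without P36 ileum replicate 3 (-0.66, adjusted p = 0.0534), and in a fit of only the 8 ileum libraries (-0.86, adjusted p = 0.086). The regions did not pass at P6 (-0.02, SE 0.29, adjusted p = 0.961) or at P36 (0.45, SE 0.29, adjusted p = 0.34), although the P36 difference passed without P36 ileum replicate 1 (0.81, adjusted p = 0.0391).

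**Figure D2:**
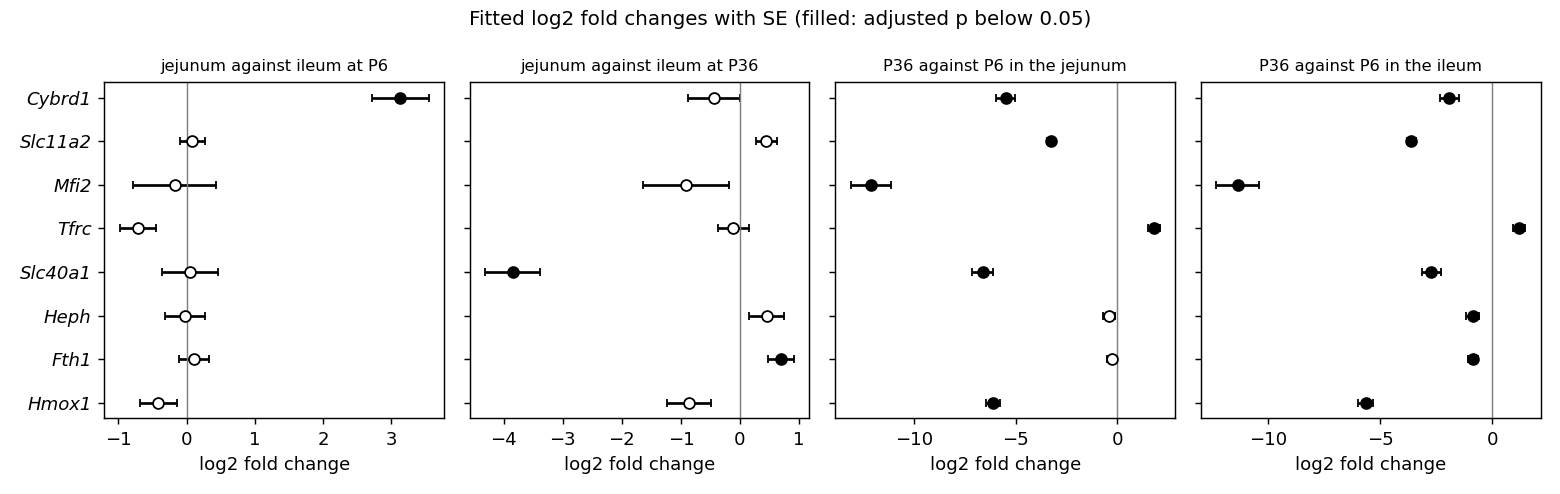
Log2 fold changes (horizontal axis, a separate scale in each panel) of the 8 genes with SE bars, for the regions at each age and for the ages in each region; filled points had an adjusted p below 0.05. Only Cybrd1 passes between regions at P6, Slc40a1 and Fth1 pass at P36, and Tfrc is the only gene with positive fold changes with age.

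Whether the regional difference itself changed with age was tested by the region-by-age interaction, the log2 regional difference at P6 minus that at P36. It passed for 2 of the 8 genes, both positive, beside 3.68% of all genes in the positive and 5.01% in the negative direction. For Slc40a1 the interaction was 3.90 (SE 0.61, adjusted p = 0.000763) and for Cybrd1 3.56 (SE 0.59, adjusted p = 0.00128). Both passed in each of the 16 fits that left out 1 library, and without P6 ileum replicates 2 and 4 they were 4.35 (adjusted p = 0.000891) and 4.28 (adjusted p = 0.000295). The same sign arose in different ways: Cybrd1 was higher in the jejunum at P6 and did not pass at P36, whereas Slc40a1 did not pass at P6 and was higher in the ileum at P36. For the other 6 genes the interaction lay between -0.60 (Tfrc, adjusted p = 0.361) and 0.74 (Mfi2, adjusted p = 0.676).

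**Figure D3:**
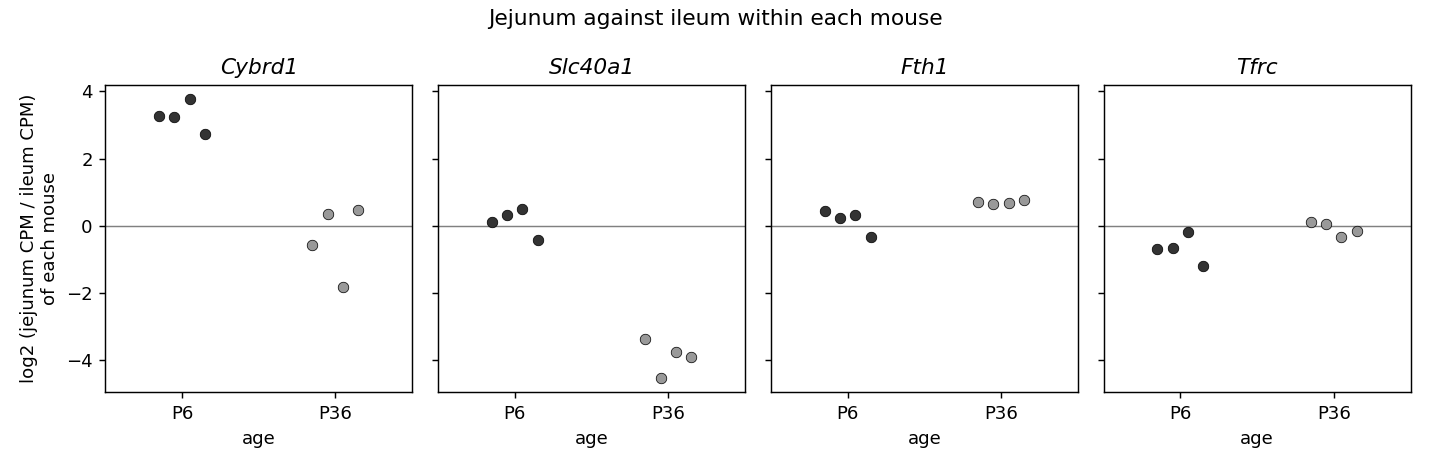
Log2 ratio of the jejunum CPM to the ileum CPM of each mouse (vertical axis) for Cybrd1, Slc40a1, Fth1 and Tfrc, with the 4 mice of each age as points in the order of replicates 1 to 4; 0 is no difference. Cybrd1 lies between 2.74 and 3.78 at P6 and on both sides of 0 at P36, Slc40a1 between -4.54 and -3.38 at P36, and Fth1 between 0.64 and 0.75 at P36.

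Levels of different genes were compared as CPM per kilobase of exon. In the P6 jejunum the order was Mfi2 at 1298, Fth1 at 1077, Slc40a1 at 376, Slc11a2 at 151 and Heph at 93.1 CPM per kilobase, followed by Hmox1, Tfrc and Cybrd1 between 18.4 and 22.6. The P6 ileum had the same first 5, and Cybrd1 was last at 2.11. These orders are of group means, and the libraries of Mfi2 and Fth1 overlapped in both regions at P6. In replicate 4 of each region Fth1 stood above Mfi2 per kilobase, and in that of the ileum Slc40a1 did as well. At P36 the order was led by Fth1, at 889 (jejunum) and 549 (ileum) CPM per kilobase, and Tfrc was next at 73.6 and 79.6. Mfi2 and Fth1 together held most of the summed level at P6 (42.5% and 35.2% in the jejunum, 46.8% and 31.9% in the ileum), and at P36 Fth1 alone held 84.3% (jejunum) and 73.3% (ileum). In the P36 jejunum Slc40a1 held 0.364% of the sum, and in the P36 ileum 7.36%. Tfrc and Heph in the P36 jejunum (362 ± 56.7 and 420 ± 55.1 CPM, SD, n = 4; 73.6 and 70.7 CPM per kilobase) and Slc40a1 and Heph in the P36 ileum (55.2 and 51.7 CPM per kilobase) were neighbours that did not differ beyond their spread, as were Mfi2, Hmox1 and Cybrd1 at P36, all below 1 CPM per kilobase.

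Within the P36 mice, 3 of the 8 genes were higher in both males than in both females, whichever region was read, beside 7.89% of all genes tested and 6.14% in the opposite direction. The mean of Slc40a1 in males was 2.55 times that in females in the jejunum and 2.42 times in the ileum. For Tfrc the ratios were 1.31 and 1.64, and for Fth1 1.20 and 1.16. None of the 8 genes showed such a pattern at P6, where the share over all genes was not counted, and no contrast between the ages is drawn. With 2 mice against 2, the smallest p of a two-sided exact permutation test is 0.333, and no other test of the sexes was run.

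The rest of the iron pathway was read from 8 further lists with 77 genes, of which 75 were in the files and 64 were tested. With age, 13 of the 64 rose and 19 fell in the jejunum, and 12 rose and 21 fell in the ileum. These shares lay near those over all genes tested, of which 24.7% rose and 26.9% fell in the jejunum and 25.5% rose and 30.1% fell in the ileum. The medians of the 64 log2 fold changes with age were -0.04 and -0.18. Between regions, at P6 the jejunum was higher for 5 and the ileum for 8, and at P36 for 7 and 3 (over all genes tested 11.1% and 14.8% at P6, and 8.3% and 7.8% at P36). Over all genes tested the medians with age were -0.01 and -0.03. The counts of the single lists below are small and stand beside the same shares of all genes.

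Other uptake and iron-binding genes had 13 tested members, of which 3 rose and 7 fell in the jejunum with age and 2 rose and 8 fell in the ileum. Slc39a8, which encodes the metal transporter ZIP8, fell from 334 CPM (group mean) and 222 CPM for the P6 jejunum and ileum to 21.9 and 22.6 CPM (log2 fold change -3.93 and -3.29, adjusted p = 1.13e-08 and 6.81e-08). Trf, the transferrin gene, fell from 67.6 and 119 CPM to 1.91 and 1.47 CPM (-5.15 and -6.39, adjusted p = 2.46e-06 and 4.7e-07). Transferrin is the ligand of the receptor that Tfrc encodes, and the 2 genes had opposite courses. Slc46a1, which encodes a folate transporter that also carries heme, was higher in the jejunum at both ages, at 127 against 63.0 CPM at P6 (log2 fold change 1.01, adjusted p = 0.0401) and 40.2 against 12.7 CPM at P36 (1.67, adjusted p = 0.00422). P6 ileum replicate 4 held 18.4 CPM of it and the other 3 libraries 66.3 to 84.3 CPM, and without P6 ileum replicates 2 and 4 the P6 difference did not pass (0.58, adjusted p = 0.0795). Lcn2, whose product binds iron-loaded siderophores, was at 0.0949 and 0.104 CPM at P6 and at 2.60 and 1.04 CPM at P36.

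Among storage genes and chaperones, Ftl1, the ferritin light chain gene, fell from 3120 CPM (group mean) at P6 to 668 CPM at P36 in the jejunum (log2 fold change -2.22, adjusted p = 0.0082). In the P6 ileum it held 3080, 3263, 3485 and 73.9 CPM, the last in replicate 4 and below every P36 library, and the P36 ileum mean was 632 CPM. Its fall in the ileum had a log2 fold change of -1.97 (adjusted p = 0.0148) and of -2.37 (adjusted p = 4.26e-09) without P6 ileum replicates 2 and 4. Ncoa4, which encodes the receptor for breakdown of ferritin in lysosomes, fell from 237 and 266 CPM to 44.4 and 32.7 CPM (-2.41 and -3.02, adjusted p = 1.84e-08 and 2.19e-09). Pcbp4, a relative of the iron chaperone genes, fell in the jejunum from 9.10 to 1.87 CPM (-2.28, adjusted p = 0.00126), and passed in the ileum as well without P6 ileum replicates 2 and 4 (-1.31, adjusted p = 0.00251). No gene of this list passed between regions. Of the other export genes, Cp and Hephl1, the ferroxidase relatives of Heph, were at or below 0.142 CPM on average in every group, Abcg2, a heme and drug exporter gene, was lower in the jejunum at both ages (log2 fold change -0.72 and -0.81), and the P6 difference did not pass without P6 ileum replicates 2 and 4 (-0.62, adjusted p = 0.0758). Mon1a, linked to ferroportin trafficking, rose in the ileum (1.39, adjusted p = 0.0262). It was at 1.91 CPM in P6 ileum replicate 4, against 31.6 and 32.4 CPM in replicates 2 and 3, and its rise was 1.06 (adjusted p = 0.00145) without replicates 2 and 4.

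Of 10 genes of iron and oxygen sensing, 2 rose and 2 fell with age in the jejunum, and 5 fell in the ileum. Epas1, which encodes HIF-2α, the hypoxia-inducible factor known to drive Slc11a2, Cybrd1 and Slc40a1 in the adult duodenum, was higher in the ileum at both ages. It was at 6.90 against 54.4 CPM at P6 (log2 fold change -2.98, adjusted p = 2.72e-06) and at 10.7 against 35.8 CPM at P36 (-1.74, adjusted p = 0.000485). Of the 3 genes named with it, Slc11a2 passed between regions at neither age. Cybrd1 was higher in the jejunum at P6 only, and Slc40a1 was higher in the ileum at P36 only. HIF-2α protein was not measured, and a part of Epas1 in these genes was not tested. With age Epas1 did not pass in either region (0.63 and -0.60, adjusted p = 0.0711 and 0.0708). Ireb2, the gene of iron regulatory protein 2, fell from 234 to 164 CPM in the jejunum and from 218 to 111 CPM in the ileum (-0.51 and -0.97), and Arnt, the partner of the hypoxia-inducible factors, fell in both regions as well (-0.62 and -0.85). Egln3, a prolyl hydroxylase gene, was lower in the jejunum at P6 (-1.30, adjusted p = 0.000385). With age Egln3 rose in the jejunum and fell in the ileum (-0.70). The ileum fall did not pass without P6 ileum replicates 2 and 4 (-0.57, adjusted p = 0.0521).

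In the hepcidin pathway, which controls ferroportin through a liver hormone, Hamp and Hamp2, the hormone genes, were at or below 0.22 CPM on average in every group. Tmprss6, whose protease restrains hepcidin in the liver, had a mean of 13.4 CPM at P6 for the jejunum, against 0.465 CPM for the ileum (a log2 difference of 4.82, adjusted p = 0.000409). It fell to 0.174 CPM in the P36 jejunum. Id1, a target of bone morphogenetic protein signalling, and Neo1, which encodes neogenin, rose in both regions, and Hfe, the hemochromatosis gene, fell in both (-1.80 and -1.36). Of 9 heme synthesis genes 2 rose and 2 fell in each region with age, with Alas1, the gene of the first enzyme, going from 50.2 to 121 CPM in the jejunum and from 42.3 to 105 CPM in the ileum (log2 fold change 1.27 and 1.32). Of 4 other heme breakdown genes 2 fell in each region. Bach1, which encodes a repressor of Hmox1, fell from 307 to 164 CPM in the jejunum (-0.90, adjusted p = 0.00389) and was at -0.41 (adjusted p = 0.145) in the ileum. Blvra, a biliverdin reductase gene, fell in both (-0.39 and -0.35), although its ileum call was lost without P6 ileum replicates 2 and 4 (-0.24, adjusted p = 0.0598). Of 14 genes of mitochondrial iron use 3 rose and 1 fell in each region. Among them Slc25a37, which encodes mitoferrin 1, rose (2.29 and 1.68), and Hscb, a cluster assembly chaperone gene, fell (-1.92 and -1.56).

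**Figure D4:**
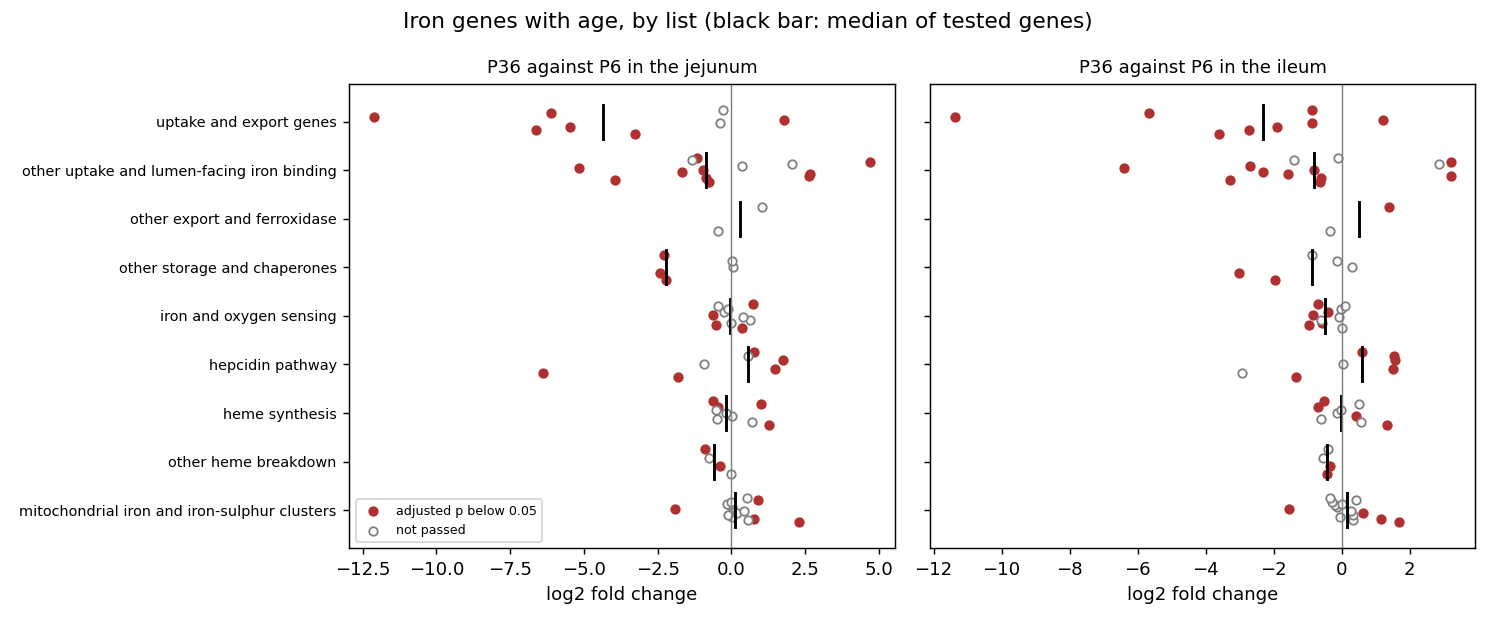
Log2 fold changes with age (horizontal axis, P36 over P6, a separate scale in each panel) of the tested iron genes, by list, with the jejunum left and the ileum right; filled points had an adjusted p below 0.05 and black bars are medians of the tested genes of a list. The uptake and export genes have medians of -4.36 and -2.32, and the other lists have medians between -2.22 and 0.60.

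Hmox1 is also a known target of the antioxidant response and of hypoxia, and 2 lists of such genes were read beside it. Of 8 antioxidant response genes, 5 rose and 1 fell in the jejunum and 5 rose and 2 fell in the ileum with age. Of 10 hypoxia-induced genes, 4 rose and 4 fell in the jejunum and 3 rose and 4 fell in the ileum. Over all genes tested, 24.7% rose and 26.9% fell in the jejunum and 25.5% rose and 30.1% fell in the ileum.

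For each of the 8 genes, the genes with the most similar course were found by Pearson's r of log2 CPM over the 16 libraries among 11979 genes. These left out every gene of the lists read here, the 8 genes and the cell type markers included, and genes with a mean CPM below 1. A gene called closest is thus the closest outside those lists. The 16 libraries fall into 4 groups, which sets most of r, and r is given as a description. Mfi2 was closest to Mamdc4 (r = 0.995), which was at 4816 and 6799 CPM in the P6 jejunum and ileum and at 2.84 and 2.18 CPM at P36. Slc11a2 was closest to Pdzd2 (r = 0.994) and Gpx3 (r = 0.993), and Hmox1 to Ogdhl (r = 0.995). For Cybrd1 it was Arsg (r = 0.982), at 167 CPM in the P6 jejunum and 20.4, 6.23 and 5.65 CPM in the other groups. For Slc40a1 it was Endod1 (r = 0.970), at 309 and 183 CPM at P6 and, as for Slc40a1, lower in the jejunum than in the ileum on average at P36 (24.6 and 88.2 CPM). Heph was closest to Marf1 (r = 0.962), Tfrc to Ccl9 (r = 0.967) and Fth1 to Adtrp (r = 0.940).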

How the data were processed

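Libraries of stranded mRNA (Kapa kit, NovaSeq) were made from EDTA-released epithelium. The authors used Trimmomatic 0.38 for trimming, STAR for alignment to mm10 (2.5.3 in the submitters' processing notes, another version in the study's methods) and deposited raw counts per gene from featureCounts of Subread 1.6.3, run on read pairs over exons of the UCSC annotation with the reverse-strand setting. These counts were used as deposited, and no normalization precedes them.

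Genes were kept by filterByExpr (13429 of 18959 with a count), scaled with TMM factors and compared by the quasi-likelihood method in edgeR 4.0.16 in R 4.3.3, with 4 group means, all 16 libraries and no block. SE is the log2 fold change divided by the square root of F, and a prior count of 2 entered log2 CPM. The script was tested on simulated data. Alternatives included DESeq2 1.42.0. Replicate pairs differed by more than sampling noise (chi-square per gene 13.2 to 272). The labels tie the 2 regions to 1 mouse by its name, and the deviations of the 8 such pairs correlated (r 0.157 to 0.391 over tested genes, mean -0.104 between different mice), so the mouse served as a block in an alternative. Replicates 1 and 2 are females and 3 and 4 males. Each mouse is 1 replicate.

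The 8 genes and the lists were chosen with earlier results of these data known. From each iron list, at most 4 genes with the smallest adjusted p in any pairwise contrast were named, and genes near 0 only as such; 1 gene that this rule names is not reported here. Hairpins were searched in UTRs of protein-coding GENCODE M21 transcripts.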

Additional observations from a re-analysis of the deposited data

Results flagged for a closer look

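Among 32 sets of 4 values (8 genes in 4 groups), 2 held a library far from the other 3, and chance gives this in about 5% of sets. Both were P6 ileum replicate 4, with 887 CPM of Heph, above the 412 to 489 CPM of the others, and 1901 CPM of Mfi2, below the 7210 to 7778 CPM of the others. The same library was the highest of its group for Slc40a1, Cybrd1, Tfrc and Fth1 and the lowest for Hmox1 and Slc11a2, and its summed epithelial marker level was 3981 CPM against 6324 to 6648 CPM.

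For Slc40a1 the regional difference at P6 exceeded that at P36 by 3.90 on the log2 scale, and for Cybrd1 by 3.56, both past the threshold of the interaction test.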

How the results depend on the processing

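Of the 848 alternative values of single genes, 784 kept their direction and their side of the threshold, 26 kept their direction and no longer passed, 11 newly passed and 27 changed sign. The 8 genes were followed under all alternatives, and 24 other iron genes only without both P6 ileum replicates 2 and 4. The number of the 8 genes passing between regions at P6 was 1 and became 2 with DESeq2, library totals, sex as a covariate, the mouse as a replicate block and, an alternative chosen after seeing the data, without both P6 ileum replicates 2 and 4 (1 to 2 over fits that left out 1 library). At P36 it was 2, and 1 to 2 over fits that left out 1 library. It became 1 with library totals, without the low-count filter, with a fold change minimum and on thinning to the smallest library. With age in the ileum the number was 8, and 7 to 8 over fits that left out 1 library. It became 4 with the fold change minimum, 7 with only the 8 libraries compared and 7 without both P6 ileum replicates 2 and 4. Apart from Tfrc at P6, the replicate block of the mouse changed no call among the 8 genes; the ages were different mice and had no block.

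The number of all 72 tested iron genes passing at P36 was 12 and became 6 with library totals, 23 with only the 8 libraries compared, 1 with the fold change minimum and 6 to 12 without 1 library. For the interaction it was 5 and became 8 with library totals, 8 without both P6 ileum replicates 2 and 4 and 5 to 9 without 1 library. With the fold change minimum it was 5 in place of 14 at P6, 15 in place of 38 with age in the jejunum and 11 in place of 41 with age in the ileum.

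All sign changes were of differences that did not pass. With library totals the log2 fold changes at P6 were -0.20 for Slc11a2, -0.24 for Slc40a1 and -0.18 for Fth1. That scaling moved the median of all genes at P6 by -0.29 and the calls from 1495 higher in the jejunum and 1989 higher in the ileum to 893 and 4077. At P6 Heph was at 0.0067 without the filter, 0.048 with the block and 0.27 without both P6 ileum replicates 2 and 4, where Slc11a2 was at -0.0034. Without both libraries the P6 differences also became 0.24 for Lcn2, -0.10 for Ftl1, 0.075 for Ncoa4, 0.0049 for Arnt, -0.021 for Alas1 and 0.036 for Blvra, and the interactions -0.18 for Ftl1, -0.030 for Mon1a and -0.23 for Alas1, whereas the interaction of Slc46a1 newly passed (-1.10, adjusted p = 0.0263). Without 1 library the values at P6 ranged from -0.15 to 0.38 for Slc40a1, from -0.047 to 0.40 for Fth1 and from -0.16 to 0.29 for Heph, and at P36 from -1.42 to 0.021 for Mfi2 and from -0.24 to 0.054 for Tfrc, with an interaction of -0.19 to 1.24 for Mfi2. The cause was not tested.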

Other observations

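The names of the P6 mice begin with 2 different stems, one for replicates 1 and 3 and one for replicates 2 and 4, and the labels do not say what a stem stands for. Slc40a1, Cybrd1 and Fth1 were higher in replicates 2 and 4 than in replicates 1 and 3 in both regions, as the values in the report show. The share of all genes tested with this pattern was not counted, so nothing particular to these genes is drawn from it. Itln1, which encodes intelectin, is listed among the lumen-facing iron-binding genes and also among the Paneth cell markers. P6 jejunum replicates 1 and 3 held 782 and 557 CPM of it, and replicates 2 and 4 held 7.09 and 4.36 CPM. In the P6 ileum the same pairs held 620 and 435 CPM, and 10.3 and 8.09 CPM. Tmprss6 in the P6 jejunum was at 5.85 and 7.51 CPM in replicates 1 and 3 and at 19.5 and 20.9 CPM in replicates 2 and 4. Within both stems, Cybrd1 was higher in the jejunum than in the ileum in 2 of 2 mice. The P36 mice share 1 stem.

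Outside the naming rule, and singled out after their values were seen, Ltf and Steap4 were the other iron genes besides Egln3 whose regional difference changed with age, each with a negative interaction. Ltf, the lactoferrin gene, had means of 3.23 and 18.6 CPM at P6 (jejunum and ileum), and of 4.11 and 2.84 CPM at P36 (interaction -3.06, adjusted p = 0.00971, and -2.15, adjusted p = 0.0351, without P6 ileum replicates 2 and 4). Steap4, a metalloreductase gene, was at 0.0662 and 1.20 CPM at P6 and at 0.472 and 0.389 CPM at P36. Its interaction was -4.24 (adjusted p = 0.00883), and -4.85 (adjusted p = 0.0018) without those libraries. The few counts of Steap4 in the P6 jejunum leave that size uncertain.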
